A study of Saccharomyces cerevisiae with 11 samples.

Results

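The *rna14-1* strain of Saccharomyces cerevisiae was compared with the wild type W303 1B over the 5449 genes that the arrays measure, to describe which functions, complexes and pathways outside DNA repair differed in their transcripts. The comparison rests on 8 of the 11 arrays of the series, 3 of *rna14-1* and 5 of the wild type, with the 3 arrays of a second mutant, *rna15-1*, used for the spread and for a direct comparison at the end. Every strain is labelled MATa with the alleles ura3-1, ade2-1, his3-11,15 and trp1-1 and a mutant allele of LEU2, and the mutant carries the *rna14-1* allele in addition. All cultures were grown at 30°C to mid-log phase. The labels call the arrays biological replicates without saying whether they came from separate clones, so the p-values measure the spread between these samples.

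*RNA14* codes for a subunit of cleavage factor I, which with the cleavage and polyadenylation factor cuts the nascent transcript at its 3′ end and directs its polyadenylation. Cutting also opens the way for termination by RNA polymerase II, and termination upstream of a gene can lower the level of that gene's mRNA. Export of the finished mRNA from the nucleus is coupled to the same machinery.

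The values are log2 intensities made with the robust multiarray average method, so a difference of 1 is a 2-fold change. Across genes, Pearson's r was 0.993 to 0.997 between *rna14-1* arrays, 0.839 to 0.860 between *rna14-1* and wild-type arrays, and 0.981 to 0.996 between wild-type arrays. Among these last, replicates 1 and 2 stood somewhat apart from replicates 3 to 5. Between 98.7% and 99.7% of genes lay above background on each array of these strains. The labelled mating type could be set against its markers. In wild type they go against it. In *rna14-1* the ranges of both marker sets overlapped, but an overlap between different probe sets does not settle the mating type. On every array of both strains the 5 alpha-specific genes were high, at 11.42 to 13.47 in *rna14-1* and 12.02 to 13.45 in wild type, while the 7 a-specific genes lay between 8.31 and 12.27 in *rna14-1* and between 5.35 and 8.30 in wild type. Of the 5 alpha-specific genes 1 fell and none rose in *rna14-1*. All 7 a-specific genes rose in *rna14-1* and also in *rna15-1*, with medians of 1.81 and 2.32. In *rna14-1*, *ASG7* rose by 2.55 ± 0.25 and *STE6*, the exporter of a-factor, by 1.74 ± 0.22. For *STE2*, the alpha-factor receptor gene on chromosome VI, the increase of 0.79 ± 0.19 had an adjusted p of 0.017 without *rna14-1* replicate 1, of 0.012 without replicate 2 and of 0.015 under quantile normalisation. Of 10 haploid-specific genes 3 rose and 4 fell, at levels of 8.51 to 12.35 in *rna14-1* and 8.93 to 11.97 in wild type. The part of this mating-type signal in other changes, such as those of sporulation genes, was not tested.

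A gene is said below to have risen or fallen where its adjusted p in limma (Benjamini-Hochberg) was under 0.01, and to be called where it passed the stricter thresholds of the study's methods, which add a B-statistic over 2, a mean log2 intensity over 7 and a change of more than 2-fold. Of all 5449 genes, 1788 (32.8%) rose and 1606 (29.5%) fell in *rna14-1*. At the stricter thresholds 549 (10.1%) were called up and 434 (7.96%) called down. The median log2 fold change of all genes was 0.003. A gene's change is given below as its log2 fold change ± its standard error from limma, or as a fold. These shares are the background for each gene list below, and a list near them is no result about that list. The arrays of *rna14-1* all lay above the wild-type arrays for 2055 genes (37.7%) and below them for 1968 (36.1%), and all 983 called genes were among these. A lack of overlap stated below for a called gene therefore adds nothing to its call. Every gene said to rise or fall by name had an adjusted p of at most 0.0063. Gene lists, 75 in number with 2216 genes, are described by how many members rose or fell and by their median, without a test of the list. The spread in limma was shared with the *rna15-1* arrays, which were not alike. A standard error can thus be wide where the *rna14-1* and wild-type arrays each lie close together. For *NUP157* the SDs were 0.03 in *rna14-1*, 0.08 in wild type and 0.97 in *rna15-1*, and the standard error was 0.31. Without the *rna15-1* arrays 1863 genes rose, 1720 fell, 572 were called up and 464 called down.

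**Figure D1:**
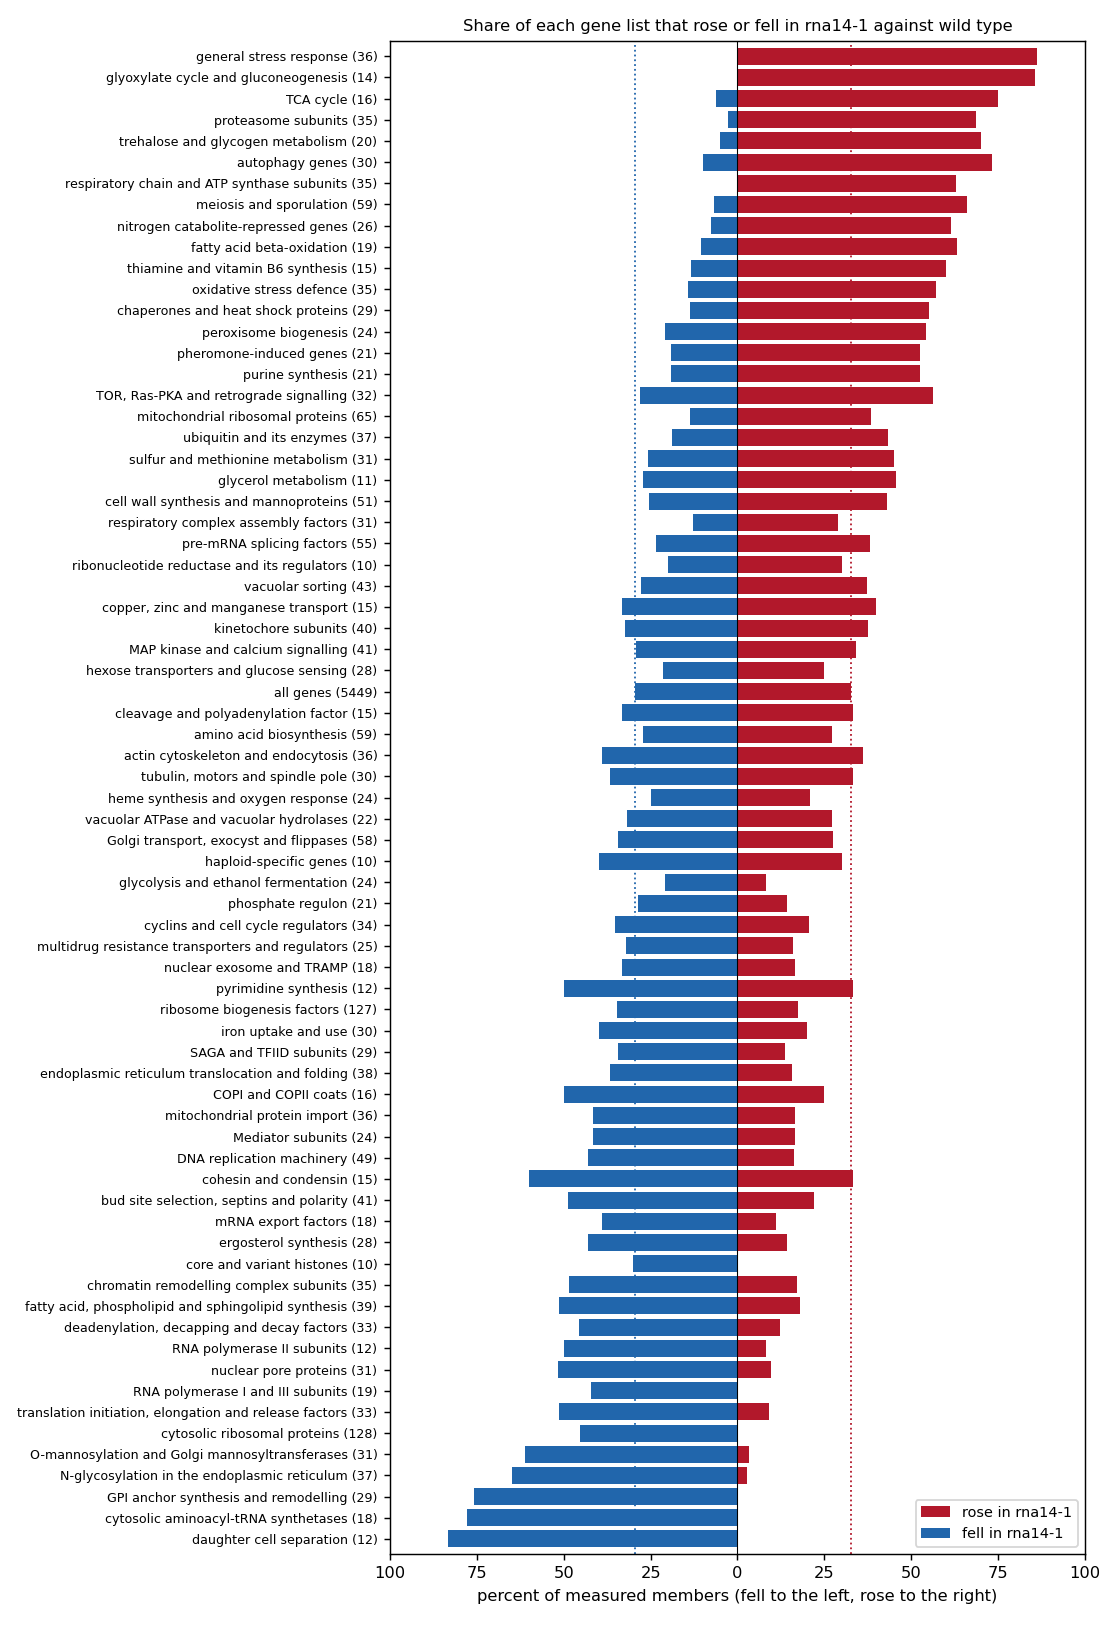
Percent of the measured members of each gene list (number in brackets, lists of at least 10) that rose, to the right, or fell, to the left, in *rna14-1* against wild type at an adjusted p under 0.01, with dotted lines at the shares of all genes, 32.8% and 29.5%. The general stress response, the glyoxylate cycle, the TCA cycle, autophagy, the respiratory chain, sporulation and the proteasome are among the lists with mostly rising members at the top, and lists of protein glycosylation, tRNA charging and cell separation stand at the bottom.

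The largest increases were spread over genes of sporulation, stationary phase and unknown function. *SPO19*, a sporulation gene coding for a cell surface protein, measured 10.36, 10.48 and 10.50 in *rna14-1*, against 4.88, 4.47, 6.13, 6.21 and 4.17 in wild type, where 1 wild-type array did not exceed background. The increase was 5.28 ± 0.56, or 38.8-fold. *RNP1*, coding for a ribonucleoprotein with RNA recognition motifs, measured 10.61, 10.29 and 10.38 in *rna14-1*, against 4.55, 5.02, 5.54, 5.92 and 5.06 in wild type, an increase of 5.21 ± 0.41. No *rna14-1* array overlapped the wild-type arrays for either gene, and the wild-type arrays of *SPO19* spread over about 2 units. *SPG1* and *SPG4*, both needed for survival in stationary phase at high temperature, rose by 4.76 ± 0.44 and 4.46 ± 0.53. *YBR284W*, a metallo-dependent hydrolase homologue, rose by 5.01 ± 0.42, and the uncharacterised *YDR042C*, *YAL037W* and *YLR412C-A* rose by 4.04 ± 0.29, 4.00 ± 0.42 and 4.41 ± 0.63.

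The steepest decreases were those of *BSC1*, a gene of unknown function, and *HMS2*, which codes for a protein like heat shock transcription factors. *BSC1* measured 5.30, 5.06 and 5.16 in *rna14-1*, against 9.88, 9.90, 10.21, 10.28 and 10.26 in wild type, 30.6-fold lower in *rna14-1*, and *HMS2* measured 5.91, 5.99 and 5.74 in *rna14-1*, against 10.59, 10.85, 10.49, 10.53 and 10.44 in wild type, 26-fold lower. *ERC1*, coding for a transporter of the multidrug and toxin extrusion family, measured 7.28, 7.53 and 7.30 in *rna14-1*, against 10.88, 10.72, 11.07, 11.04 and 11.18 in wild type, a decrease of 12.2-fold. *FMP41*, which codes for a mitochondrial protein of unknown function, measured 7.09, 7.15 and 7.10 in *rna14-1*, against 10.09, 10.21, 10.11, 10.22 and 10.33 in wild type. *ISM1*, the mitochondrial isoleucyl-tRNA synthetase, and *PPM2*, a tRNA methyltransferase of wybutosine synthesis, had log2 fold changes of -2.68 ± 0.13 and -2.69 ± 0.22. The groups were fully apart for all 6 genes. Other steep falls concerned membrane traffic, described below, and *PTC2*, a phosphatase of the osmosensing and checkpoint kinases (-2.66 ± 0.27).

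**Figure D2:**
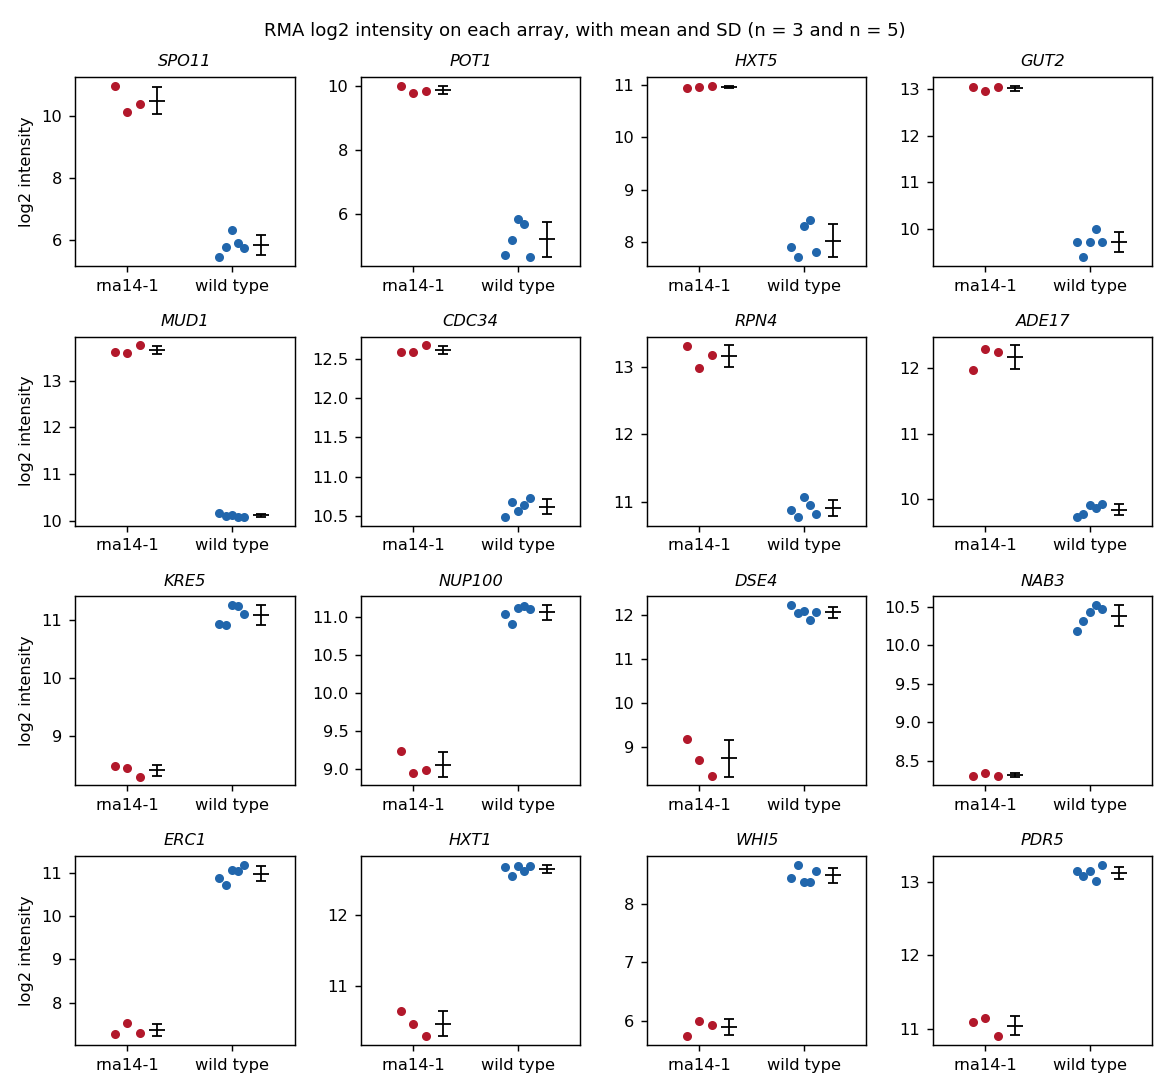
Log2 intensity of 16 named genes on each *rna14-1* array, at the left of each panel, and each wild-type array, at the right, with the mean and SD of each group (n = 3 and n = 5) beside the points. The groups do not overlap in any panel, and every vertical axis has its own range.

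The 3′-end machinery itself did not move as a block. Of 5 subunits of cleavage factor I, 4 rose and none fell. *RNA14* measured 10.90, 11.24 and 11.23 in *rna14-1*, against 10.03, 9.98, 9.95, 9.95 and 9.83 in wild type, an increase of 1.18 ± 0.09, which says nothing about the activity of the mutant protein. *RNA15* rose by 0.84 ± 0.08, *CLP1* by 0.65 ± 0.08 and *PCF11*, which binds the polymerase's tail, by 0.49 ± 0.06. *HRP1* measured 12.47, 11.91 and 12.30 in *rna14-1*, against 11.88, 11.85, 11.83, 11.92 and 11.71 in wild type, with overlapping groups and an adjusted p of 0.025 in limma. It passed the threshold at an adjusted p of 0.0036 without *rna14-1* replicate 2.

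Of 15 subunits of the cleavage and polyadenylation factor, 5 rose and 5 fell, with a median of 0.01. *SYC1* measured 8.23, 7.99 and 7.99 in *rna14-1*, against 9.92, 9.86, 9.90, 9.94 and 9.88 in wild type, a decrease of 3.56-fold. *CFT2* fell to 9.47, 9.64 and 9.52 in *rna14-1*, against 10.74, 10.70, 10.67, 10.76 and 10.74 in wild type, and *PTI1* had a log2 fold change of -1.09 ± 0.08. *CFT1* and *PTA1* also fell, with -0.89 ± 0.10 and -0.65 ± 0.09. *REF2*, *MPE1*, *PAP1*, which is the poly(A) polymerase, *GLC7* and *YTH1* rose, by 0.46 to 0.75.

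Among the termination factors of short transcripts, *NAB3* measured 8.30, 8.34 and 8.31 in *rna14-1*, against 10.18, 10.31, 10.43, 10.52 and 10.47 in wild type. That is a decrease of 4.19-fold with an adjusted p of 1.2e-06 in limma, and no overlap of the groups. Its partner *NRD1* measured 11.45, 11.28 and 11.54 in *rna14-1*, against 10.86, 10.98, 10.92, 11.00 and 10.89 in wild type, an increase of 0.49 ± 0.13 at an adjusted p of 0.0063 that did not hold when single arrays were left out. Without any one wild-type array, or without *rna14-1* replicate 1 or 3, the adjusted p was between 0.01 and 0.032. *RAT1*, the nuclear 5′-to-3′ exonuclease of the torpedo pathway, fell by 0.55 on the log2 scale, and *RTT103*, which recruits it, rose by 0.82 ± 0.08. Of 8 genes known to be controlled by premature termination, 5 rose and none fell. This list includes *NRD1*, and *PCF11* and *HRP1* of cleavage factor I. The count that rose was 4 to 6 when single arrays were left out. In *rna15-1*, 2 of these genes rose and none fell, with a median of -0.006 against 0.49 in *rna14-1*. *GSC2*, a glucan synthase subunit, rose by 1.12 ± 0.08 and *ADE12*, the adenylosuccinate synthase, by 0.91 ± 0.11.

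The general stress response had the largest share of rising members among the lists of 10 genes or more, with 31 of 36 higher, none lower, 16 called up and a median of 1.29. *XBP1*, a stress-induced repressor of transcription, measured 11.84, 11.43 and 11.62 in *rna14-1*, against 7.78, 7.53, 7.66, 7.33 and 7.10 in wild type, with no overlap of the groups.

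Lists of carbon metabolism differed from each other. In yeast growing on glucose, genes for the use of acetate, lactate, fatty acids and other poor carbon sources are held low. Of 14 genes of the glyoxylate cycle and gluconeogenesis, 12 rose and none fell, with a median of 1.68, and 8 were called up. *IDP2*, a cytosolic isocitrate dehydrogenase, measured 11.44, 11.44 and 11.53 in *rna14-1*, against 8.95, 8.58, 8.94, 8.99 and 8.93 in wild type, an increase of 6.02-fold. *ADR1*, the activator of many of these genes, measured 10.63, 10.46 and 10.44 in *rna14-1*, against 7.94, 7.53, 8.28, 8.22 and 8.53 in wild type. Neither gene overlapped between the groups. *ACS1*, the acetyl-CoA synthetase used in respiring cells, rose by 2.04 ± 0.18, the lactate permease *JEN1* by 2.11 ± 0.33 and the regulator *SIP4* by 1.95 ± 0.20.

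Of 19 genes of fatty acid beta-oxidation, 12 rose and 2 fell, with a median of 1.12. *POT1*, the peroxisomal thiolase of the last step, measured 10.02, 9.79 and 9.85 in *rna14-1*, against 4.70, 5.16, 5.82, 5.67 and 4.63 in wild type, which is 25.9-fold higher in *rna14-1*. *POX1*, the oxidase of the first step, measured 6.35, 6.64 and 6.64 in *rna14-1*, against 4.64, 3.94, 5.48, 5.65 and 4.85 in wild type, a smaller increase of 1.63 ± 0.33 in which 1 wild-type array was not above background. Under quantile normalisation the increase of *POX1* was 0.68, with an adjusted p of 0.039. *PXA2*, which imports fatty acids into peroxisomes, rose by 1.84 ± 0.15 and *IDP3*, a peroxisomal isocitrate dehydrogenase, by 1.51 ± 0.17. Of 24 peroxisome biogenesis genes 13 rose and 5 fell. *PEX18* and *PEX21*, which help deliver thiolase to peroxisomes, rose by 2.91 ± 0.26 and 1.17 ± 0.17, while *PEX2*, a peroxisomal ubiquitin ligase, fell by 1.01 on the log2 scale. Without *rna14-1* replicate 3 the count that fell was 3.

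Mitochondrial genes moved in several ways. Of 16 TCA cycle genes, 12 rose, 7 of them called, and 1 fell. *SDH2*, a succinate dehydrogenase subunit, measured 12.25, 12.73 and 12.68 in *rna14-1*, against 10.27, 10.38, 10.40, 10.47 and 10.43 in wild type, and *LSC2*, a succinyl-CoA ligase subunit, measured 12.27, 12.32 and 12.35 in *rna14-1*, against 10.49, 10.42, 10.22, 10.37 and 10.55 in wild type. Both genes showed wide gaps between the groups. *CIT3*, a mitochondrial citrate synthase, rose by 2.15 ± 0.11 and *KGD1* by 1.52 ± 0.09. Of 35 subunits of the respiratory chain and ATP synthase, 22 rose and none fell, with a median of 0.53 and 3 called. *CYT1*, cytochrome c1, rose by 1.51 ± 0.15. Mitochondrial ribosomal proteins rose in 25 of 65 cases and fell in 9, a count that was 5 without *rna14-1* replicate 1 or 3. *MRPS17* rose the most of them, by 1.80 ± 0.12. Genes of mitochondrial protein import went the other way, with 15 of 36 lower and 6 higher. *SAM35*, of the outer membrane sorting complex, had a log2 fold change of -1.21 ± 0.12. Of 31 respiratory assembly factors 9 rose and 4 fell, a count of falls that was 1 without *rna14-1* replicate 1 or 3 and 2 without replicate 2, with *PET100* and *ATP22* higher by 2.2 ± 0.21 and 1.79 ± 0.14 and *PET122* lower at -1.75 ± 0.10.

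In glycolysis and fermentation, of 24 genes 2 rose and 5 fell, or 3 without *rna14-1* replicate 1. Both phosphofructokinase subunits fell. *PFK1* measured 12.19, 12.28 and 12.26 in *rna14-1*, against 13.59, 13.59, 13.41, 13.50 and 13.50 in wild type, and *PFK2* had a log2 fold change of -1.14 ± 0.08. Among hexose transporters and glucose sensing genes 7 of 28 rose and 6 fell. *HXT5*, a transporter of slow-growing cells, measured 10.93, 10.95 and 10.98 in *rna14-1*, against 7.90, 7.71, 8.30, 8.42 and 7.81 in wild type, an increase of 7.6-fold, whereas *HXT1*, the low-affinity transporter of high glucose, measured 10.66, 10.47 and 10.30 in *rna14-1*, against 12.68, 12.56, 12.70, 12.63 and 12.70 in wild type. *MTH1*, a repressor of hexose transporter genes, rose by 2.09 ± 0.09. Of 11 glycerol genes 5 rose and 3 fell. *GUT2*, the mitochondrial glycerol-3-phosphate dehydrogenase, measured 13.04, 12.95 and 13.05 in *rna14-1*, against 9.72, 9.39, 9.72, 10 and 9.72 in wild type, a 9.87-fold increase. *GPD2*, a glycerol-3-phosphate dehydrogenase of glycerol synthesis, measured 7.88, 7.91 and 7.82 in *rna14-1*, against 10.95, 11.36, 10.72, 10.74 and 10.88 in wild type, an 8.35-fold decrease, and *STL1*, a glycerol symporter, rose by 1.75 ± 0.25. The groups were apart for all 3 genes.

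Of 20 genes of trehalose and glycogen metabolism, 14 rose and 1 fell, with a median of 0.88. *GAC1*, a regulatory subunit of the phosphatase that activates glycogen synthase, measured 8.94, 8.85 and 9.24 in *rna14-1*, against 7.18, 7.22, 6.23, 6.07 and 5.97 in wild type. *GSY2*, the main glycogen synthase, measured 11.17, 11.20 and 11.48 in *rna14-1*, against 9.82, 9.81, 9.24, 9.22 and 9.09 in wild type. In both genes wild-type replicates 1 and 2 were higher than replicates 3 to 5, and every *rna14-1* array was higher still. Against wild-type replicates 1 and 2 alone, 9 members rose. The debranching enzyme *GDB1* rose by 1.73 ± 0.13, and *PGM1*, a phosphoglucomutase, was the member that fell, with -1.43 ± 0.12.

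Of 26 genes repressed by good nitrogen sources, 16 rose, 11 of them called, and 2 fell. The count that fell was 1 without *rna14-1* replicate 2 or 3 or wild-type replicate 2 or 4. *PUT1*, proline oxidase, measured 14, 13.89 and 13.95 in *rna14-1*, against 11.39, 11.30, 11.00, 11.06 and 10.98 in wild type, and *DAL80*, a repressor of this regulon, measured 10.75, 10.92 and 11.06 in *rna14-1*, against 8.54, 8.75, 8.31, 8.54 and 8.66 in wild type. *UGA2*, of GABA breakdown, rose by 2.28 ± 0.13 and the urea permease *DUR3* by 1.78 ± 0.17. Of 15 genes of thiamine and vitamin B6 synthesis, 9 rose, 7 of them called, and the median was 1.43. *THI20*, a kinase of the thiamine precursor, measured 12.42, 12.54 and 12.56 in *rna14-1*, against 10, 9.97, 9.99, 10.15 and 10.10 in wild type, and *SNZ1*, of pyridoxine synthesis, measured 13.13, 13.07 and 12.88 in *rna14-1*, against 10.43, 10.44, 10.92, 10.95 and 10.92 in wild type. Neither overlapped between the groups. Several THI and SNZ genes are near copies of each other, so the probes of *THI13* and *SNZ3*, marked as shared, cannot assign their increases of 2.56 and 2.17 to single genes.

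Purine synthesis and one-carbon genes rose in 11 of 21 cases and fell in 4. *ADE17*, of the last steps of IMP synthesis, measured 11.97, 12.30 and 12.25 in *rna14-1*, against 9.73, 9.78, 9.92, 9.86 and 9.93 in wild type, a 5.03-fold increase. *GCV1* and *GCV2*, of the glycine cleavage system, rose by 2.2 ± 0.15 and 1.31 ± 0.11, and *MTD1* by 1.79 ± 0.15. Pyrimidine synthesis was split, with *URA1* and *URA10* higher by 1.67 ± 0.11 and 1.85 ± 0.26 and *FUR1* and *URA5* lower at -1.50 ± 0.09 and -1.40 ± 0.11. Amino acid synthesis as a list stayed close to the background, with 16 rising and 16 falling of 59. Within it *LYS1*, saccharopine dehydrogenase, rose by 2.19 ± 0.11 and *SER3*, of serine synthesis, by 2.15 ± 0.09. In sulfur metabolism 14 of 31 genes rose and 8 fell. The sulfate permease *SUL1* measured 8.46, 8.38 and 8.74 in *rna14-1*, against 5.73, 5.46, 6.74, 6.55 and 6.15 in wild type, and the S-adenosylmethionine permease *SAM3* had a log2 fold change of -2.02 ± 0.25.

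**Figure D3:**
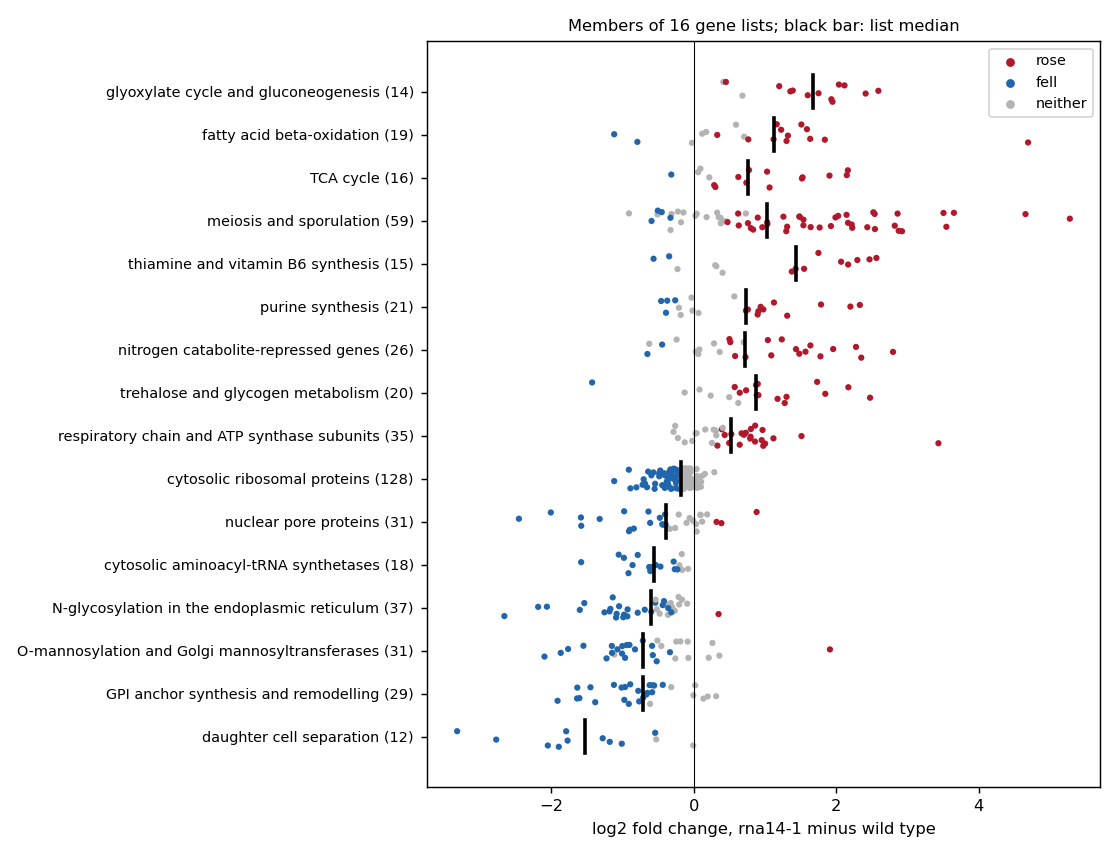
Log2 fold change, *rna14-1* minus wild type, of each measured member of 16 gene lists, in red where it rose, blue where it fell and grey where it passed neither threshold, with the list median as a black bar. The medians run from 1.68 for the glyoxylate cycle and gluconeogenesis to -1.53 for daughter cell separation.

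Genes of meiosis and sporulation, which are mostly kept low in growing haploid cells, rose in 39 of 59 cases and fell in 4, with a median of 1.03 and 16 called up. The count that fell was 2 without *rna14-1* replicate 2 or 3 or wild-type replicate 3. *SPO11*, which makes the double-strand breaks of meiotic recombination, measured 10.98, 10.14 and 10.38 in *rna14-1*, against 5.44, 5.78, 6.32, 5.91 and 5.75 in wild type, an increase of 25.2-fold. *REC104*, one of its partners, measured 10.59, 10.96 and 10.80 in *rna14-1*, against 7.13, 6.53, 7.30, 7.57 and 7.12 in wild type, and *REC102*, another, rose by 3.51 ± 0.29. All 3 stood apart on every array. *SPR3*, a sporulation-specific septin, measured 10.57, 10.18 and 10.63 in *rna14-1*, against 5.67, 5.69, 6.48, 6.44 and 5.80 in wild type. *SPS2*, a sporulation gene, rose by 3.55 ± 0.40, with 3 of the wild-type arrays above background.

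Regulators of nutrient signalling rose in 18 of 32 cases and fell in 9. *RIM15*, a kinase of entry into quiescence, measured 11.24, 11.44 and 11.43 in *rna14-1*, against 8.93, 8.92, 8.65, 8.62 and 8.63 in wild type, 6.16-fold higher in *rna14-1*, and lies on chromosome VI, whose shift is given below. *BCY1*, the inhibitory subunit of protein kinase A, measured 12.52, 12.72 and 12.65 in *rna14-1*, against 11.23, 11.18, 11.16, 11.26 and 11.27 in wild type, and *PPH22*, a catalytic subunit of protein phosphatase 2A, rose by 1.53 ± 0.13. *YAK1*, a kinase that opposes protein kinase A, rose by 1.18 ± 0.19. In the vacuole, *AMS1*, alpha-mannosidase, measured 11.96, 11.81 and 12.04 in *rna14-1*, against 9.07, 8.83, 9.03, 8.88 and 8.94 in wild type, and *PRB1*, proteinase B, rose by 2.11 ± 0.13. Other vacuolar genes fell, among them *VPH1* and *STV1*, the alternative subunits of the proton pump, with -0.92 ± 0.07 and -0.87 ± 0.09. Of 30 autophagy genes 22 rose and 3 fell, and *ATG32*, the receptor for mitochondria, rose by 2.11 ± 0.15.

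Ubiquitin and its enzymes rose in 16 of 37 cases and fell in 7. *CDC34*, the ubiquitin-conjugating enzyme of the G1-to-S transition, measured 12.58, 12.59 and 12.67 in *rna14-1*, against 10.49, 10.68, 10.56, 10.64 and 10.73 in wild type. *UBC5* rose by 2.09 ± 0.16 and *UBI4*, the polyubiquitin gene, by 1.85 ± 0.16, while *UBC12*, which conjugates Rub1, had -1.61 ± 0.16. *RPN4*, the activator of proteasome genes, measured 13.31, 12.99 and 13.18 in *rna14-1*, against 10.88, 10.77, 11.07, 10.95 and 10.82 in wild type, a 4.79-fold increase. Of the proteasome list, 24 of 35 genes rose and 1 fell, most of them by less than 2-fold, since 4 were called.

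The lists with the largest share of falling members among those of 15 genes or more were tRNA charging, GPI anchoring and the glycosylation of secreted proteins. Of 37 genes of N-glycosylation in the endoplasmic reticulum, 24 fell, 12 of them called, and 1 rose, with a median of -0.60. *KRE5* measured 8.49, 8.45 and 8.31 in *rna14-1*, against 10.92, 10.90, 11.25, 11.23 and 11.09 in wild type. It is counted in the list as a glucosyltransferase-like protein of the endoplasmic reticulum, not as an enzyme of N-glycosylation. *ALG7*, of the first step of the lipid-linked sugar, measured 9.09, 9.05 and 8.91 in *rna14-1*, against 10.86, 10.77, 11.30, 11.24 and 11.23 in wild type, and *MNS1*, an alpha-mannosidase, measured 7.29, 7.48 and 7.19 in *rna14-1*, against 9.25, 9.40, 9.79, 9.55 and 9.55 in wild type. The groups were apart for all 3 genes. *STT3*, the catalytic subunit of oligosaccharyltransferase, had -1.54 ± 0.10.

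Of 31 genes of O-mannosylation and Golgi mannosyltransferases, 19 fell and 1 rose, with a median of -0.72. *KTR3*, a Golgi mannosyltransferase, measured 10.15, 10.03 and 9.82 in *rna14-1*, against 11.90, 11.95, 12.29, 12.20 and 12.15 in wild type. *PMT1* and *PMT4*, of O-mannosylation in the endoplasmic reticulum, had -1.87 ± 0.17 and -1.77 ± 0.17. The member that rose was *MNN4*, a regulator of mannose phosphorylation, by 1.91 ± 0.23. Of 29 genes of GPI anchor synthesis and remodelling, 22 fell and none rose, with a median of -0.71. *MCD4*, which adds phosphoethanolamine to the anchor, measured 9.50, 9.23 and 9.28 in *rna14-1*, against 11.01, 11.08, 11.48, 11.35 and 11.32 in wild type, and *GAA1* and *GPI2* had -1.61 ± 0.21 and -1.64 ± 0.18.

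Membrane traffic and endoplasmic reticulum genes moved less evenly. *DNF2*, a plasma membrane flippase, measured 9.36, 9.15 and 9.0 in *rna14-1*, against 11.89, 11.97, 12.10, 12 and 12.03 in wild type, 7.11-fold lower in *rna14-1*, and its relative *DNF1* had -1.67 ± 0.20. *GEA1*, an exchange factor of Golgi budding, measured 7.02, 7.12 and 7.11 in *rna14-1*, against 10.19, 10.12, 9.87, 9.89 and 10.05 in wild type, and *SEC39*, a tether of vesicles returning from the Golgi, measured 7.62, 7.51 and 7.54 in *rna14-1*, against 9.94, 9.91, 9.68, 9.76 and 9.68 in wild type. Each of these was lower on all *rna14-1* arrays. *TRS85*, a subunit of a Golgi and autophagy tether, rose by 1.35 ± 0.17. The Golgi list as a whole had 16 of 58 genes rising and 20 falling. In the endoplasmic reticulum list 14 of 38 genes (36.8%) fell and 6 rose. Against wild-type replicates 1 and 2 alone, 9 fell. Among the falling genes were *HRD3* and *USA1*, of protein degradation, with -1.82 ± 0.11 and -1.76 ± 0.10. Another was *IRE1*, the sensor of unfolded proteins, with -1.51 ± 0.11. Of 16 coat genes, 8 fell and 4 rose, with *SEC31* at -1.12 ± 0.10. Vacuolar sorting had 16 rising and 12 falling of 43. The count that fell was 7 without *rna14-1* replicate 1 and 6 without replicate 3.

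Daughter cell separation had the largest share of falling members among the lists of 10 genes or more. Many of its genes code for glucanases, chitinase and other wall proteins made in the daughter cell after cytokinesis. Some members, such as *AMN1*, do not code for wall proteins. Of 12 members 10 fell, 8 of them called, with a median of -1.53. *DSE4*, an endoglucanase, measured 9.18, 8.69 and 8.34 in *rna14-1*, against 12.22, 12.04, 12.09, 11.87 and 12.07 in wild type, a 10-fold decrease. *SCW11*, a glucanase-like wall protein, measured 10.20, 9.96 and 9.90 in *rna14-1*, against 12.19, 11.98, 12.13, 11.99 and 12.07 in wild type, and *DSE2* measured 10.33, 10.10 and 9.86 in *rna14-1*, against 12.02, 12.09, 12.04, 11.93 and 11.89 in wild type. In each the 3 *rna14-1* arrays lay more than 1 unit below every wild-type array. *PRY3* had -2.77 ± 0.14, *EGT2* -1.77 ± 0.14, *SUN4* -1.79 ± 0.08 and *AMN1* -1.18 ± 0.08. *CTS1*, the chitinase, had -0.54 ± 0.13, with an adjusted p of 0.017 in limma without *rna14-1* replicate 2. The wider list of cell wall genes rose in 22 of 51 cases and fell in 13. *PIR3*, a covalently linked wall protein, rose by 1.97 ± 0.19, and *HKR1*, an osmosensing mucin, had -2.27 ± 0.12.

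Polarity and bud site genes fell in 20 of 41 cases and rose in 9. *BUD9*, a landmark of bud site selection in diploid-type budding, measured 7.29, 7.14 and 7.16 in *rna14-1*, against 10.18, 10.23, 9.85, 9.80 and 9.88 in wild type, and *MSB2*, a mucin upstream of the filamentous growth and osmosensing kinases, measured 10.16, 10.23 and 10.06 in *rna14-1*, against 12.14, 12.12, 12.48, 12.46 and 12.34 in wild type. *RAX1*, another landmark protein, had -1.92 ± 0.19. Among endocytosis and actin genes *PAN1*, of actin patches, had -1.64 ± 0.13 and *TPM2*, the minor tropomyosin, rose by 1.23 ± 0.13, in a list of 13 rising and 14 falling of 36. *PKC1*, the kinase of the wall integrity pathway, measured 8.44, 8.62 and 8.50 in *rna14-1*, against 10.49, 10.36, 10.29, 10.23 and 10.43 in wild type, a 3.58-fold decrease, and *PTP2*, a phosphatase of MAP kinases, rose by 1.43 ± 0.18.

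Cell cycle genes fell in 12 of 34 cases, 7 of them called, and rose in 7. *WHI5*, the repressor of the G1-to-S transition, measured 5.73, 6.0 and 5.93 in *rna14-1*, against 8.45, 8.67, 8.37, 8.38 and 8.57 in wild type, 6.08-fold lower in *rna14-1*. The G1 cyclins fell too, with *CLN1* at 9.0, 9.26 and 9.11 in *rna14-1*, against 10.56, 10.75, 10.53, 10.58 and 10.41 in wild type, and *CLN2* at -1.62 ± 0.26. *SWE1* and *HSL7*, of the morphogenesis checkpoint, had -1.42 ± 0.17 and -1.93 ± 0.21. Replication genes fell in 21 of 49 cases and rose in 8, with falls of *POL2*, a DNA polymerase catalytic subunit, and *ORC4*, of the origin recognition complex, at -1.25 ± 0.16 and -1.12 ± 0.08. The count that rose was 5 without any one of the *rna14-1* arrays. Of 10 genes of ribonucleotide reductase and its regulators, 3 rose, 2 of them called, and 2 fell, with a median of 0.19. Among the falling genes *RNR1*, the large subunit, had -1.65 ± 0.31 and was not called. It measured 10.49, 10.61 and 10.52 in *rna14-1*, against 12.41, 12.49, 12.03, 11.97 and 12.07 in wild type, with no overlap. The *rna15-1* arrays, which share in the standard error, were scattered for this gene, at 12.49, 12.58 and 10.95. Of 10 histone genes 3 fell, near the background share, and none rose, with *HTB2*, a histone H2B gene, at -1.48 ± 0.16.

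In spindle and kinetochore lists, members rose and fell in similar numbers. *CIN8*, a kinesin of spindle assembly, measured 12.06, 11.45 and 11.75 in *rna14-1*, against 9.06, 9.05, 9.11, 8.89 and 8.94 in wild type, a 6.7-fold increase, and the microtubule regulators *STU2* and *CIN4* had -2.01 ± 0.17 and -2.27 ± 0.12. Among kinetochore subunits *NSL1* and *MTW1*, members of one complex, rose by 1.65 ± 0.15 and 1.32 ± 0.18, while *CEP3* and *CTF19* had -2.01 ± 0.19 and -1.70 ± 0.20. For cohesin and condensin, 9 of 15 genes fell and 5 rose, with *MCD1*, the cleavable cohesin subunit, at -1.26 ± 0.14 and its loader *SCC4* higher by 1.19 ± 0.11.

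Nuclear pore proteins fell in 16 of 31 cases, 5 of them called, and rose in 3. *NUP157*, of the inner ring, measured 8.66, 8.69 and 8.64 in *rna14-1*, against 11.22, 11.15, 11.02, 11.08 and 11.13 in wild type, and *NUP100*, a repeat protein of the channel, measured 9.24, 8.95 and 8.98 in *rna14-1*, against 11.04, 10.91, 11.12, 11.15 and 11.11 in wild type. Both were lower on every *rna14-1* array. *NUP1* and *POM152* had -1.58 ± 0.07 and -1.58 ± 0.13. Among mRNA export factors *THO2*, of the THO complex that binds nascent transcripts, measured 9.43, 9.40 and 9.54 in *rna14-1*, against 11.49, 11.65, 11.24, 11.38 and 11.39 in wild type, and *NPL3*, an RNA-binding protein of the same path, had -1.07 ± 0.08. *SAC3*, a scaffold of export at the pore, fell by 0.66 on the log2 scale and *MFT1*, another THO subunit, rose by 0.79 ± 0.07.

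Several transcription complexes leaned to lower levels. Of 12 RNA polymerase II subunits 6 fell and 1 rose, with *RPO21*, the largest subunit, at -1.11 ± 0.15. None of the 19 genes for subunits of polymerases I and III rose and 8 fell. Of 35 chromatin remodelling subunits 17 fell and 6 rose. *SWI1*, of the SWI/SNF complex, measured 8.06, 8.10 and 8.08 in *rna14-1*, against 10.08, 9.91, 10.29, 10.43 and 10.41 in wild type, 4.43-fold lower in *rna14-1*. In Mediator, 10 of 24 fell and 4 rose, with *SRB2* at -2.03 ± 0.22. SAGA and TFIID were nearer to the background share, with 10 of 29 subunits (34.5%) lower and 4 higher, 2 called down and 3 called up. Within them *TRA1*, the large activator-binding subunit, measured 9.30, 9.09 and 9.18 in *rna14-1*, against 11.43, 11.48, 10.92, 10.94 and 11.01 in wild type. By contrast *TAF12* and *SPT20* rose by 1.57 ± 0.10 and 1.22 ± 0.11.

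RNA processing was divided. Of 55 splicing factors 21 rose and 13 fell. *MUD1*, a protein of the U1 particle, measured 13.61, 13.60 and 13.76 in *rna14-1*, against 10.17, 10.11, 10.13, 10.08 and 10.09 in wild type, an 11.6-fold increase, and the 3 *rna14-1* arrays lay more than 3 units above wild type. *CUS1*, *CLF1* and *YHC1* rose by 1.44 ± 0.08, 1.34 ± 0.11 and 1.28 ± 0.09, and *PRP28*, a helicase, had -1.54 ± 0.11. Of 33 genes of deadenylation, decapping and decay 15 fell and 4 rose. *XRN1*, the cytoplasmic 5′-to-3′ exonuclease, measured 9.98, 9.97 and 9.98 in *rna14-1*, against 11.48, 11.49, 11.33, 11.45 and 11.49 in wild type. *NAM7*, of nonsense-mediated decay, and *CCR4*, a deadenylase, had -1.25 ± 0.06 and -1.17 ± 0.13, and *EDC1*, an enhancer of decapping, rose by 2.43 ± 0.15.

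Genes of protein synthesis fell often but by small amounts. None of 128 cytosolic ribosomal protein genes rose and 58 fell, with a median of -0.17 and 1 called, *RPL26A* at -1.12 ± 0.10. The number that fell depended on the arrays, with 37 without *rna14-1* replicate 3 and 67 at most when another array was left out, 33 against wild-type replicates 1 and 2 alone, and 30 with the replicate number as a block. Many ribosomal proteins come from gene pairs of similar sequence, whose probes may share signal. Of 18 cytosolic aminoacyl-tRNA synthetases 14 fell and none rose, with a median of -0.56. *DPS1*, which charges aspartate, measured 11.51, 11.63 and 11.44 in *rna14-1*, against 13.08, 13.21, 13.04, 13.07 and 13.14 in wild type, and *WRS1*, which charges tryptophan, had -1.05 ± 0.11. Of 33 translation factors 17 fell and 3 rose. *DED1*, a helicase of initiation, measured 10.41, 10.59 and 10.59 in *rna14-1*, against 12.20, 12.24, 12.05, 12.18 and 12.18 in wild type, and *TIF4631*, which is eIF4G, had -1.18 ± 0.08. Both stood apart from wild type on every array. Ribosome biogenesis factors fell in 44 of 127 cases and rose in 22, nearer to the background shares.

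Lipid genes leaned to lower levels. Of 39 genes of fatty acid, phospholipid and sphingolipid synthesis 20 fell and 7 rose. *INO1*, inositol-3-phosphate synthase, was an exception and measured 11.17, 11.43 and 11.58 in *rna14-1*, against 8.69, 8.42, 9.63, 9.45 and 9.91 in wild type, with rather scattered wild-type arrays. *ELO1*, an elongase, and *EPT1*, of phospholipid synthesis, had -1.36 ± 0.19 and -1.47 ± 0.17. Of 28 ergosterol genes 12 fell and 4 rose. *HMG2*, an HMG-CoA reductase, measured 9.38, 9.45 and 9.36 in *rna14-1*, against 11.10, 11.16, 11.62, 11.58 and 11.32 in wild type, and *ERG24* had -1.81 ± 0.15. In iron uptake, 12 of 30 genes fell, 7 of them called, and 6 rose. The wild-type arrays were split for this list. Its median relative to the wild-type mean was -0.268 and -0.304 on wild-type replicates 1 and 2. It was 0.328, 0.134 and 0.1 on replicates 3 to 5, and -0.328, -0.574 and -0.5 in *rna14-1*. *FET3*, the multicopper oxidase of high-affinity uptake, measured 10.89, 11.06 and 10.94 in *rna14-1*, against 12.59, 12.61, 13.17, 13.01 and 12.95 in wild type, while *HMX1*, the heme oxygenase, measured 11.70, 11.88 and 11.90 in *rna14-1*, against 9.78, 9.56, 9.74, 9.70 and 9.82 in wild type. The list held opposite changes, in that *TIS11*, which degrades mRNAs when iron is short, rose by 1.80 ± 0.39 and *FRE8*, a reductase-like gene, had -2.16 ± 0.13.

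The direct comparison with *rna15-1*, a mutant of another cleavage factor I subunit, asked where the 2 mutants differed. In limma 900 genes (16.5%) were higher and 870 (16.0%) lower in *rna14-1* than in *rna15-1*. These counts varied with the arrays, and the *rna15-1* arrays were not alike. The 259 genes of chromosome V had array medians relative to the wild-type mean of -0.02, 0.036 and 0.028 in *rna14-1*, against 0.724 and 0.674 on *rna15-1* replicates 1 and 2 and 0.043 on replicate 3. Replicate 3 is thus the array without this shift, and it had r of 0.964 to 0.965 to the other replicates, which had 0.997 between them. Of the chromosome V genes 12 were higher and 58 (22.4%) lower in *rna14-1* than in *rna15-1*, and without them 888 genes were higher and 812 (15.6%) lower. Whether the copy number of chromosome V differed was not tested. Without *rna15-1* replicate 3, 1215 genes were higher and 1322 lower in *rna14-1*, whereas 582 and 534 were without *rna14-1* replicate 3, and 599 and 556 without *rna15-1* replicate 2. Without *rna15-1* replicate 1 the number lower was 545. Both mutants are set against the same 5 wild-type arrays, so their fold changes are given side by side and not correlated. The 20 genes plotted were chosen from the named genes for their difference after their values were seen.

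Multidrug resistance genes differed between the mutants. *PDR5*, the main drug efflux pump, had -2.08 ± 0.07 in *rna14-1* and 0.34 ± 0.07 in *rna15-1*, with an adjusted p of 1.3e-08 for the difference. On the arrays *PDR5* measured 11.09, 11.15 and 10.90 in *rna14-1*, against 13.14, 13.08, 13.15, 13.01 and 13.23 in wild type. *YOR1*, another pump, had -2.26 ± 0.17 and 0.37 ± 0.17, and *RSB1*, a sphingoid base exporter, -1.76 ± 0.18 and 1.68 ± 0.18 in *rna14-1* and *rna15-1*. *PDR3*, a regulator of these pumps, had -1.85 ± 0.09 in *rna14-1* and -0.99 ± 0.09 in *rna15-1*. Of 25 genes in this list 8 were lower and 4 higher in *rna14-1* than in *rna15-1*.

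Storage carbohydrate, phosphate and sporulation genes were more often higher than lower in *rna14-1* relative to *rna15-1*. For trehalose and glycogen, 10 of 20 members were higher in *rna14-1* and 1 lower, with medians against wild type of 0.88 in *rna14-1* and 0.28 in *rna15-1*. Of the phosphate regulon 12 of 21 were higher and none lower, with medians of -0.23 in *rna14-1* and -1.06 in *rna15-1*. *PHO89*, the sodium-phosphate symporter, had 2.78 ± 0.49 in *rna14-1* and -1.81 ± 0.49 in *rna15-1*. Sporulation genes were higher in 17 of 59 cases and lower in none, with medians of 1.03 in *rna14-1* and 0.51 in *rna15-1*. *PUT1* and *RIM15* were raised in *rna14-1* and stood at 0.28 ± 0.40 and 0.37 ± 0.11 in *rna15-1*, with adjusted p of 0.001 and 4.0e-07 for the difference. *FLO1*, a flocculin, had opposite signs, 2.75 ± 0.15 in *rna14-1* and -1.97 ± 0.15 in *rna15-1*.

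Lower in *rna14-1* than in *rna15-1* were 25 of 59 amino acid synthesis genes, with 4 higher, and 12 of 36 mitochondrial import genes, with none higher. Leaving out the genes of chromosome V, 22 of 52 and 11 of 34 were lower. *HO*, the mating-type endonuclease, measured 8.85, 8.63 and 8.51 in *rna14-1*, against 11.26, 11.07, 11.07, 11.09 and 11.15 in wild type. It had -2.47 ± 0.21 in *rna14-1* and 0.34 ± 0.21 in *rna15-1*, with an adjusted p of 8.1e-06 for the difference. *CLN1* had -0.20 ± 0.17 and *MSB2* -0.11 ± 0.10 in *rna15-1*, where *rna14-1* had the falls given above. By contrast, *NAB3* was at -2.04 ± 0.16 in *rna15-1*, with an adjusted p of 0.91 for the difference from *rna14-1*, a p that does not show that the 2 mutants act alike.

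**Figure D4:**
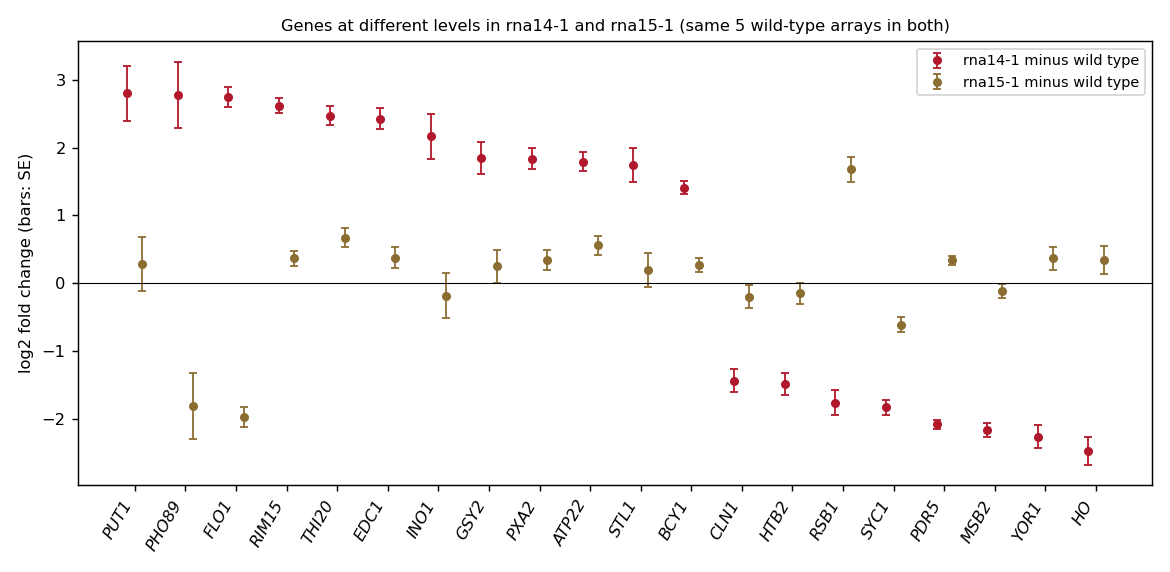
Log2 fold change against the same 5 wild-type arrays for 20 genes, with *rna14-1* in red at the left and *rna15-1* in brown at the right of each pair and bars for the standard error. The 12 genes at the left rose in *rna14-1* and the 8 at the right fell, and the *rna15-1* values lie nearer to 0 or on the other side.

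Position on the chromosomes was looked at last. The 117 genes of chromosome VI had a median log2 fold change of 0.31, with array medians relative to the wild-type mean of 0.291, 0.362 and 0.329 in *rna14-1* and of -0.031 to 0.037 in wild type. Of them 45.3% rose and 20.5% fell, against 32.5% and 29.7% of all other genes, and 17.1% were called up and 0.855% down. The genes of chromosome XI had a median of 0.128 and those of all chromosomes but VI one of -0.006. Whether the copy number of chromosome VI differed was not tested. Among the genes named above, *STE2*, *SNZ3* and *RIM15* lie on it. Without the genes of chromosome VI the counts were 1735 rising and 1582 falling.

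**Figure D5:**
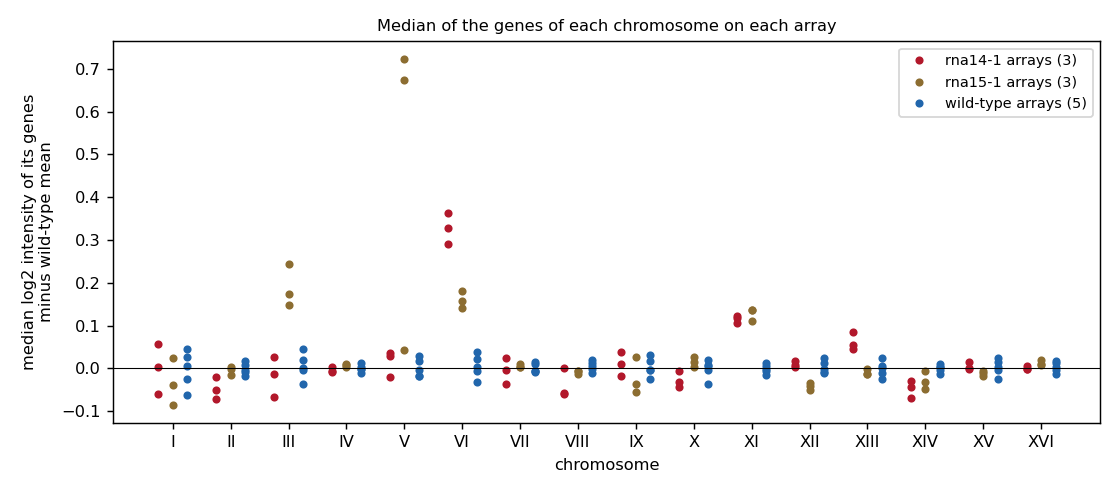
Median log2 intensity, relative to the wild-type mean of each gene, of the genes of each of 16 chromosomes on the 3 *rna14-1* arrays, in red, the 3 *rna15-1* arrays, in brown, and the 5 wild-type arrays, in blue. On chromosome VI the *rna14-1* arrays lie at 0.291 to 0.362, above all wild-type arrays, and on chromosome V *rna15-1* replicates 1 and 2 lie at 0.724 and 0.674 while replicate 3 lies at 0.043.

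Neighbouring genes were compared because reading through an unterminated gene could reach the next one. Of 2470 genes whose upstream neighbour is protein-coding and on the same strand 34.0% rose and 29.7% fell, and of 2620 with a divergent protein-coding neighbour 31.7% rose and 29.5% fell. Where the tandem upstream neighbour was itself called up, 41.6% of 219 genes rose and 20.5% fell, and where a divergent one was called up, 38.5% of 221 rose and 27.6% fell. Among genes with a protein-coding neighbour downstream, 31.6% rose and 31.1% fell where it lay in tandem, and 33.8% rose and 28.5% fell where it was convergent. At the stricter thresholds 10% and 6.52% were called down, against 7.96% of all genes. These shares are descriptions without a test.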

How the data were processed

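Total RNA of *rna14-1*, *rna15-1* and wild-type cells was measured on Affymetrix yeast arrays. The values deposited by the authors are log2 intensities, summarised with the robust multiarray average after scanning, per the labels' processing notes (GCOS, RMA and limma, versions not given in the sources used here). Gene names came from the platform annotation. Of 10928 probe sets 7244 had 1 name, 1 had several and 3683 none, and 5498 with a S. cerevisiae name gave 5449 genes, the brightest probe set standing for each. The 95th percentile of 1746 probe sets whose 1 gene is not one of S. cerevisiae, 4.193 to 4.44 per array, served as background. Array medians over genes were 10.339 to 10.4, and the number of arrays limits the precision.

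Groups followed the titles of the samples. limma 3.58.1 in R 4.3.3 fitted 1 mean per strain to all 11 arrays, with empirical Bayes moderation and Benjamini-Hochberg adjustment over 5449 genes. On simulated data with independent errors and 50 changed genes per size, 26, 46, 50 and 49 genes passed the adjusted p at log2 changes of 0.5, 1, 1.5 and 2, and 3 unchanged genes passed. On the real arrays far more genes passed and some replicates stood apart from others. The simulated rates therefore need not hold for them. Named genes were drawn first from the 15 largest increases and 15 largest decreases among called genes. For these, all *rna14-1* arrays had to stand apart from wild type, and probes marked as shared were left out. The 5 largest changes of each of the 75 gene lists were added. So were all members of the lists for 3′-end formation, termination, daughter separation and mating type. The members and lists were chosen with earlier results of these data known. List members without a measured probe set were not analysed here. Alternatives covered normalisation, the probe set rule, filters, thresholds, a replicate block, subsets of arrays and, added after seeing the data, the removal of chromosome VI or V. Python 3.11.15 made the lists and figures. The refseq table of the R64 assembly supplied names, chromosomes and gene order.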

Additional observations from a re-analysis of the deposited data

Results flagged for a closer look

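Among the 5 wild-type arrays 1 array stood far from the other 4 for 8 of the 212 genes named here, where chance gives about 1 in 20. Wild-type replicate 1 was low for *CEP3*, at 8.41. Replicate 2 was high for *REF2*, at 10.75, and *SPT20*, at 9.73, and low for *MRPS17*, at 9.71, *PIR3*, at 10.71, and *IDP2*, at 8.58. Replicate 3 was low for *XRN1*, at 11.33, and replicate 5 was high for *GCV2*, at 10.48. The *rna14-1* arrays did not overlap the wild-type arrays for any of the 8 genes.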

How the results depend on the processing

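The counts that rose, fell or were called kept within 1.5 times of the values reported under normalisation, probe set rule, filters, array subsets, a replicate block and the removal of chromosome VI, with 1498 to 1863 genes rising and 1290 to 1836 falling. With a fold threshold of 1.5 in place of 2, 852 genes were called up and 781 down. Leaving out each array in turn gave 1545 to 1930 rising, 1367 to 1787 falling, 434 to 603 called up and 354 to 475 called down. Quantile normalisation shifted the median of all genes to -0.061 and the share of called genes that were up to 48.7%, against 55.8% as reported, and a median shift gave -0.041 and 51.4%. The comparison with *rna15-1* was less stable. Leaving out each array gave 582 to 1215 genes higher and 534 to 1322 lower in *rna14-1*. The counts without *rna14-1* replicate 3 were 582 and 534, without *rna15-1* replicate 2 they were 599 and 556, and without *rna15-1* replicate 1 the number lower was 545. Lower in *rna14-1* than in *rna15-1* were 1348 genes at an adjusted p under 0.05. The replicate numbers did not pair the arrays, since the deviations of equally numbered *rna14-1* and wild-type arrays correlated at -0.115, -0.0999 and -0.119. With the replicate number as a block 1498 genes rose, 1290 fell, 414 were called up and 309 down, and 562 were lower in *rna14-1* than in *rna15-1*. For the 212 genes named, 4845 of 4869 values under the alternatives kept direction and side of the threshold, 22 fell short of it, 2 passed it and 0 changed sign. Against wild-type replicates 1 and 2 alone, list counts that moved by more than 1.5 times included ribosomal proteins falling, 33, ergosterol genes falling, 7, mitochondrial import falling, 8, and vacuolar sorting rising, 9. With the block, those that did were ribosomal proteins falling, 30, ribosome biogenesis falling, 27, mitochondrial import falling, 9, ergosterol genes falling, 7, vacuolar sorting rising, 10, and falling, 7, and MAP kinase and calcium signalling rising, 9. The causes were not tested.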
